A study of Bombyx mori with 3 samples.

Results

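Tubulins, the motors that run on microtubules and the proteins that shape non-muscle actin filaments were examined in the larval fat body of the silkworm Bombyx mori after feeding with the insecticide phoxim. The members are the gene probes whose description names a tubulin, dynein, kinesin, dynactin, profilin, cofilin or actin-depolymerizing factor, the Arp2/3 complex or another actin-related protein. Gelsolin, filamin, spectrin, formin and capping protein were also searched for, and descriptions with myosin, troponin, titin or a tubulin-specific chaperone were left out. The search found 216 of the 23229 gene probes on the array, and the search used descriptions only. Of these, 10 matched by wording only, mainly through "forming" or "transforming", and are not cytoskeletal by their descriptions. They are kept in the counts because the search defines the members, and values without them are given where a statement rests on them.

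Microtubules are hollow polymers of paired alpha- and beta-tubulin. Dynein, with its partner complex dynactin, carries cargo toward one end of the microtubule and most kinesins carry it toward the other, whereas axonemal dyneins bend cilia and sperm tails. Actin filaments are nucleated by Arp2/3 and formins, closed by capping protein, shortened by actin-depolymerizing factor and gelsolin, and tied to membranes by spectrin. In the fat body, the insect organ that stores fat and protein and secretes most proteins of the blood, this machinery serves secretion and the position of organelles as in other cells.

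Larvae of strain p50, of both sexes and on day 3 of instar 5, were fed mulberry leaves that had been dipped in phoxim at 4 µg/mL, while control larvae ate leaves dipped in water. Phoxim is an organophosphate, a class that blocks acetylcholinesterase, and fat body was dissected after 24 h in experiments of 30 larvae each. Each of 3 two-colour arrays held treated and control RNA of 1 replicate number, and ratios are given as the log2 of phoxim over control. The labels put phoxim in Cy5 on every array, but the file header of replicate 2 puts it in Cy3, and the header was followed. Of 8 yeast control RNAs, 7 were brighter in Cy3 on replicates 1 and 3 and brighter in Cy5 on replicate 2, and 1 was brighter in Cy5 on all 3. The correlation of the ratios across probes was lowest between replicates 1 and 2 (r = 0.03), and it was 0.27 between replicates 2 and 3 and 0.355 between replicates 1 and 3. With replicate 2 turned as labelled, its correlation was -0.03 with replicate 1 and -0.27 with replicate 3. Fat body markers were bright in both groups, with 38 of 66 probes tested and summed intensities of 477207 to 782118 in phoxim and 473245 to 577883 in control RNA. Summed intensities, here and below, add the deposited values of all probes of a list, tested or not, without normalisation between dyes or arrays.

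The first question was which of these genes the fat body expressed at a level the array could measure. A spot counted as above background where its intensity passed the 95th percentile of the blank spots of its channel, and a probe was tested where at least 1 of its 2 RNAs did so on all 3 arrays. By this rule 48 members were tested, or 22.2%, against 26.5% of all gene probes. A further 121 members were above background in neither RNA on any array, and none of the 216 was saturated. All 6 tested tubulins, and 34 of the 48 tested members, were above background in both RNAs on all arrays.

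Dynactin, the activator of dynein, was measured most completely, with 5 of 6 probes tested. The actin monomer and severing group followed with 3 of 6, then the actin nucleation and filament-end group with 8 of 20, the tubulins with 6 of 18 and the cytoplasmic dyneins with 5 of 19. Kinesins were tested at 7 of 39 probes, tubulin folding and modifying factors at 4 of 17, and filamin and spectrin at 4 of 17, all 4 of them spectrins. Of 51 axonemal dynein probes 2 were tested and 42 were above background nowhere. Probes of other testis and cilium genes were tested at 19 of 70, and their summed intensities were 44367 to 59059 in phoxim and 36246 to 50134 in control RNA. A further 13 dynein probes named no class, and 1 of them was tested. Members for which the files list an expressed sequence tag, a read from a silkworm cDNA library, were tested at 23 of 54 probes (42.6%), and those without at 25 of 162 (15.4%). The same shares over all gene probes were 45.8% and 19.6%.

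**Figure D1:**
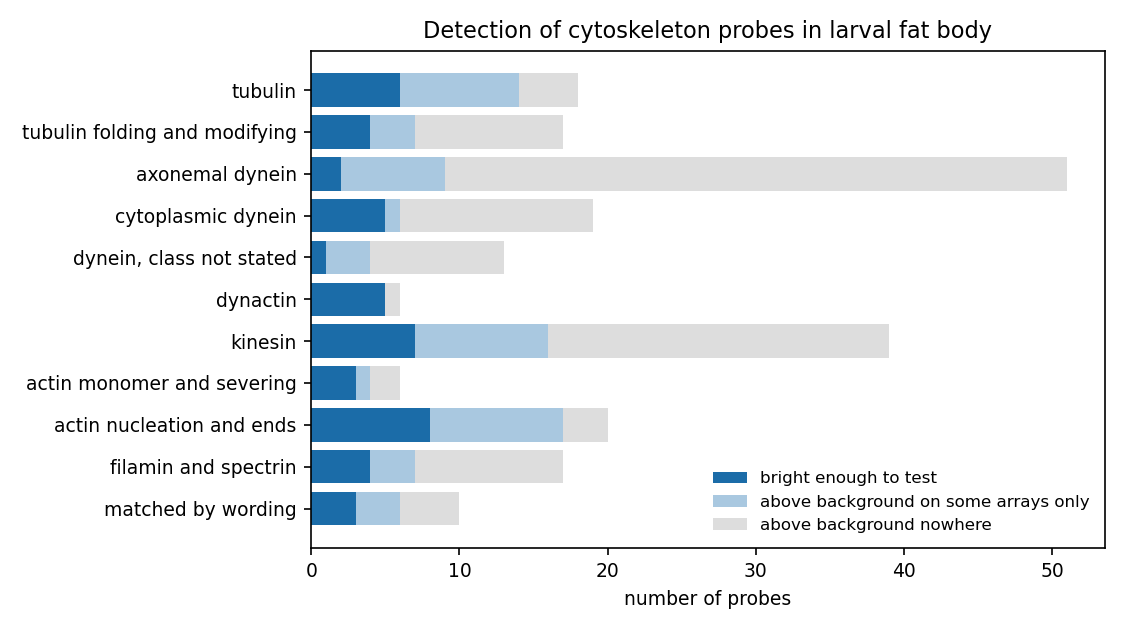
Number of probes (horizontal axis) in each role, split into those bright enough to test, those above background on some arrays only and those above background in no RNA on any array. Dynactin has 5 of 6 probes tested, whereas 42 of 51 axonemal dynein probes are above background nowhere.

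Several silkworm tubulin genes gave little or no signal. The alpha-tubulins Tua2 and Tua3 were above background in neither RNA on any array. The probe shared by the beta-tubulins Tub4 and LOC100101153 had intensities of 56, 182 and 59 in phoxim and 128, 89 and 126 in control RNA. Only the phoxim spots of replicates 1 and 3 exceeded background, because the limits there were 46.9 and 31.8 in their channel, Cy5, and 188.3 and 175.7 in Cy3, which held the control RNA. Its log2 ratios were -0.27, -0.08 and -0.12, so detection in phoxim RNA alone does not show a higher level there. The beta-tubulin LOC693049 exceeded background on 1 array, in phoxim RNA, and the same difference in limits applies to it. In the RefSeq annotation (assembly ASM3026992v2) LOC100101153 and Tub4 are neighbours and so are Tub4 and LOC693049, while Tub3 and Tub2 have 1 protein-coding gene between them. All 16 gene IDs carried by 17 members were found in that annotation. No genome positions are printed, since the build of the array design is not given in the sources used here.

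No member passed the test between phoxim and control. With limma, 0 of 48 members had an adjusted p under 0.05, against 0 of 6154 probes (0%), and the smallest adjusted p of a member was 0.30. At an unadjusted p under 0.05 limma gave 6 members lower, against 4.81% of all probes, and 2 members higher, against 6.13%. The p-values rest on the spread between these 3 arrays, with the spread of each probe drawn by limma toward that of all probes. A small SD between arrays therefore need not give a small p. A p that misses the threshold does not show that the levels were equal. In whole tissue, fewer cells of a type and less RNA per cell cannot be told apart.

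The mean log2 ratio was below 0 for 32 of the 48 members, or 66.7%, against 49.7% of all probes. Members lower in phoxim on all 3 arrays numbered 13, or 27.1%, against 17.1% of all probes, and members higher on all 3 numbered 6, or 12.5%, against 18.2%. The median log2 ratio was -0.25 over the members and 0.00 over all probes, and it was -0.28 over the 45 members left without those matched by wording. By array the members' medians were -0.10, -0.14 and -0.42 in replicates 1, 2 and 3, where all probes had 0.13, -0.06 and 0.00. Replicate 3 held the lowest values: 34 members were below 0 there against 28 on each of the others. Over all 6154 probes, 2647, 3376 and 3077 were below 0 in replicates 1, 2 and 3. Of the 48 members, 4 had their highest ratio in replicate 3, against 23.7% of all probes. Without replicate 3 the median was -0.10, and 1 member in place of 6 was lower at an unadjusted p under 0.05 by limma. With replicate 2 turned as the labels have it, the median was -0.06 and that count was also 1. The count of all probes under that p, in either direction, fell as well. It was 673 as reported, 332 without replicate 3 and 297 with replicate 2 as labelled. Centring each array on its median in place of the loess fit moved all probes to a median of 0.24 and the members to -0.02, which left the members 0.26 below all probes, and 54.2% of them were then below 0.

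The normalised levels of the groups, each RNA on its own scale, overlapped for most members. In 2 members all phoxim levels lay below all control levels, against 6.03% of all probes, and in 3 they lay above, against 7.67%. These shares, 4.17% and 6.25% of the members, are near the background. The 5 members were the capping protein alpha subunit and a kinesin-73 probe on the lower side, and the Costal2-like, tubulin tyrosine ligase-like 3 and cytoplasmic dynein heavy chain 2 probes on the higher side.

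**Figure D2:**
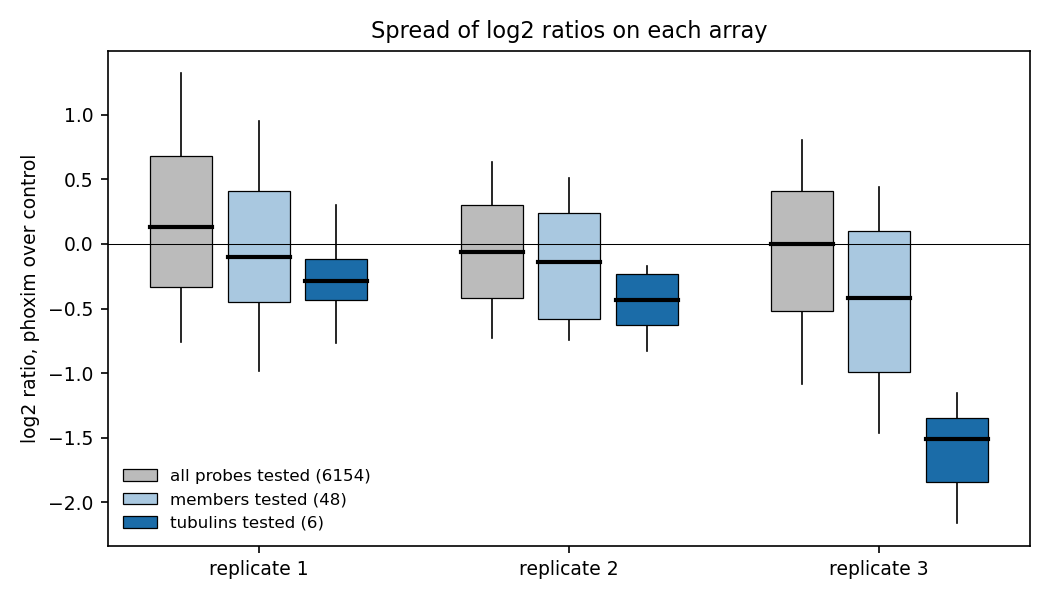
Log2 ratio of phoxim over control (vertical axis) on each array for all 6154 probes tested, the 48 members tested and the 6 tubulins tested. Boxes span the 25th to 75th percentile with the median as a thick line, and thin lines span the 10th to 90th percentile. The tubulin medians are -0.29, -0.43 and -1.51 in replicates 1, 2 and 3.

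The tubulins, the building blocks of the microtubule, had the lowest median of any role. All 6 tested probes had a mean log2 ratio below 0, against 49.7% of all probes, and the median was -0.86. Of the 6, 5 were lower in phoxim on all 3 arrays, against 17.1% of all probes. None passed the adjusted threshold, and 3 were lower at an unadjusted p under 0.05 by limma, against 4.81% of all probes. The median by array was -0.29 in replicate 1, -0.43 in replicate 2 and -1.51 in replicate 3, and without replicate 3 it was -0.44. It was -0.41 with replicate 2 turned as labelled. The 6 probes are not independent, because 2 of them are for 1 gene and tubulin genes are alike in sequence, so that a probe may read transcripts of its relatives.

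Tua1, an alpha-tubulin gene, carried 2 tested probes. The probe sw21719 had normalised log2 levels of 11.27, 8.61 and 9.23 in phoxim RNA and 12.37, 9.18 and 11.16 in control RNA of replicates 1, 2 and 3. Both RNAs of replicate 2 were dim, and the phoxim level was the lower on each array although the groups overlapped. Its log2 ratios were -1.10, -0.57 and -1.93, with a mean of -1.20 ± 0.69 (SD, n = 3; 95% interval -2.02 to -0.38; limma unadjusted p = 0.011, adjusted p = 0.37). The other probe, sw22939, had levels of 15.28, 14.89 and 14.18 in phoxim and 15.38, 15.02 and 15.62 in control RNA. In replicates 1 and 2 its levels were nearly equal between the RNAs, and the difference lay in replicate 3. Its log2 ratios were -0.10, -0.13 and -1.44, with a mean of -0.56 ± 0.76 (limma adjusted p = 0.60). The 2 probes of Tua1 therefore gave the same sign on every array and differed in size, most of all in replicate 1.

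Tub2, a beta-tubulin gene, had levels of 13.08, 10.57 and 11.44 in phoxim and 13.52, 10.87 and 13.83 in control RNA. As with the Tua1 probe sw21719, both RNAs of replicate 2 had lower levels than on replicates 1 and 3. Unlike that probe, Tub2 lay well above the medians of all probes on replicate 2, 9.08 in phoxim and 9.11 in control RNA. The log2 ratios were -0.44, -0.30 and -2.40, with a mean of -1.04 ± 1.17 (limma adjusted p = 0.47), and the SD exceeds the mean because of replicate 3. Without replicate 3 the mean was -0.37.

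Tub3, its neighbour by gene order, had levels of 9.06, 8.56 and 7.68 in phoxim and 9.45, 9.20 and 9.01 in control RNA. Only the highest phoxim level overlapped the control levels. The log2 ratios were -0.39, -0.65 and -1.33, with a mean of -0.79 ± 0.48 (limma unadjusted p = 0.038, adjusted p = 0.44). Unlike Tub2, its control levels lay within a narrow range.

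The remaining tubulin probes have no gene ID and are known by their best protein match. The probe sw09774, most like a tubulin beta-4 chain, had levels of 13.62, 12.23 and 12.40 in phoxim and 13.80, 13.25 and 13.98 in control RNA, and log2 ratios of -0.19, -1.02 and -1.58. Its mean was -0.93 ± 0.70 (limma unadjusted p = 0.033, adjusted p = 0.43), and it was the 1 tubulin at least 2-fold lower on replicate 2. The probe sw01296, most like a honeybee tubulin alpha-1 chain, was the exception among the tubulins. Its log2 ratios of 0.70, -0.20 and -0.97 changed sign between arrays, with a mean of -0.16 ± 0.84 (limma adjusted p = 0.92). On replicate 3 all 6 tubulin probes were below 0, from -0.97 to -2.40.

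**Figure D3:**
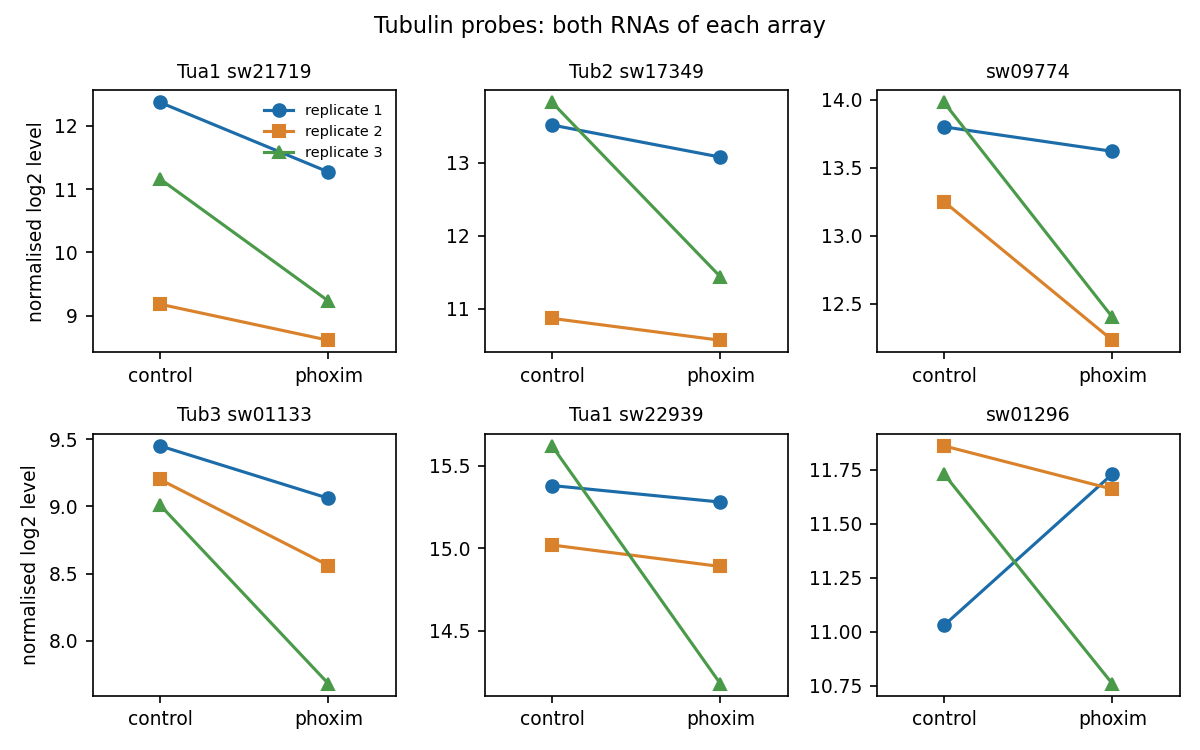
Normalised log2 level (vertical axis, a separate scale in each panel) of the 6 tested tubulin probes in control and phoxim RNA, with 1 line for each array. The line of replicate 3 is the steepest downward in each panel, and only sw01296 in replicate 1 slopes upward.

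Proteins that fold or modify tubulin had values on both sides of 0. Of 4 tested probes, 2 were higher in phoxim on all 3 arrays, both with an unadjusted p under 0.05 by limma, and the median was 0.45. Over all probes 18.2% were higher on all 3 arrays and 6.13% were higher at that p. The probe sw22880, most like tubulin cofactor C, which in mammals helps release finished alpha-beta tubulin pairs, had levels of 11.08, 11.08 and 11.73 in phoxim and 10.18, 10.44 and 11.25 in control RNA. Its log2 ratios of 0.90, 0.65 and 0.48 lay close together, with a mean of 0.68 ± 0.21 (limma unadjusted p = 0.045, adjusted p = 0.45). The probe sw09407, most like tubulin tyrosine ligase-like 3, a mammalian enzyme that adds glycine to tubulin, had levels of 10.41, 10.23 and 9.92 in phoxim and 9.22, 9.70 and 9.50 in control RNA. All 3 phoxim levels lay above all 3 control levels, with log2 ratios of 1.19, 0.54 and 0.42 and a mean of 0.72 ± 0.42 (limma unadjusted p = 0.048, adjusted p = 0.45). Without any 1 of the arrays, or with replicate 2 as labelled, 0 members were higher at an unadjusted p under 0.05 by limma. In either direction, 708, 691 and 332 of all probes were under that p without replicates 1, 2 and 3. The count was 297 with replicate 2 as labelled, against 673 as reported.

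Cofactor D, which in mammals binds beta-tubulin during assembly of the pair, had log2 ratios of 1.57, -0.48 and -0.41 at probe sw02406, so its mean of 0.23 ± 1.16 came from replicate 1. Cofactor A, which in mammals holds free beta-tubulin, had -0.20, 0.06 and -0.71 at probe sw04068 and a mean of -0.28 ± 0.39. The other 13 probes of this role, among them the gamma-tubulin complex proteins that start new microtubules, were not bright enough to test.

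The wider folding machinery was measured at 8 of 11 probes that are not members. The search for it took in the CCT chaperonin and prefoldin, which fold new actin and tubulin chains, and the tubulin-specific chaperones. Among those tested was sw13130, most like tubulin-specific chaperone E, at -0.92, 0.58 and 0.68. Their median was -0.18, and 2 were higher and 2 lower on all 3 arrays, against 18.2% and 17.1% of all probes. With limma 0 had an adjusted p under 0.05. At an unadjusted p under 0.05 by limma 1 was lower, against 4.81% of all probes. The 1 lower at that p was the CCT subunit probe sw07725, most like fly T-complex chaperonin 5, at -1.16, -0.61 and -1.10 (mean -0.96 ± 0.30, limma adjusted p = 0.39). The CCT beta subunit LOC692797 was lower on all 3 arrays with a mean of -0.64 ± 0.48, and the prefoldin beta subunit LOC692882 was higher on all 3 with a mean of 0.66 ± 0.40. Folding factors thus lay on both sides of 0. Of 34 probes for microtubule-associated proteins 6 were tested, with a median of -0.17 and 0 of them below an unadjusted p of 0.05 by limma, as well as 0 by adjusted p.

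The dyneins and dynactin had a median log2 ratio of -0.36 over 13 tested probes, 10 of them with a mean below 0, 3 lower on all 3 arrays and 1 higher on all 3. Over all probes these shares were 49.7%, 17.1% and 18.2%. None had an unadjusted p under 0.05 by limma, so 0 passed. The probe sw00138, most like a sea urchin protein that binds the outer dynein arm of cilia, had levels of 7.88, 8.21 and 7.27 in phoxim and 7.99, 8.94 and 8.40 in control RNA. It was dim in both groups, with phoxim RNA above background on 2 arrays. In replicate 2 phoxim RNA, at an intensity of 252, missed the Cy3 limit of 307.1, while control RNA, at 280, passed the Cy5 limit of 101.0. Its log2 ratios were -0.11, -0.74 and -1.13 and its mean was -0.66 ± 0.52 (limma adjusted p = 0.50).

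The probe sw18202, most like cytoplasmic dynein heavy chain 2, the motor chain that in other animals returns cargo from the tip of a cilium, had levels of 8.50, 8.30 and 8.38 in phoxim and 7.72, 8.06 and 7.64 in control RNA. The groups did not overlap, although control RNA was above background on 1 array only and the limits differ by dye, and the log2 ratios were 0.78, 0.24 and 0.74 with a mean of 0.59 ± 0.30 (limma adjusted p = 0.50). A second heavy chain 2 probe, sw05876, had -0.26, 0.08 and -1.04, and the third, sw19591, had 0.80, -0.70 and -0.44. Probes with the same name therefore did not share a direction. Of 7 probes with 1 further cytoplasmic heavy chain description none was tested.

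The intermediate chain probe sw19848, for the subunit that links dynein to dynactin, had log2 ratios of -1.29, 0.25 and -1.07, with replicate 2 on the other side of 0 from the rest. The light chain probe sw21972 showed the same order at -0.93, 0.49 and -0.15. The file headers give replicate 2 the reverse dye order and the labels do not, and for a single probe of this kind dye and replicate cannot be told apart.

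The dynactin subunits lay closer to 0, with a median of -0.09 over 5 probes and means from -0.37 to 0.24. The probe sw09626 was most like rat dynactin 4, a subunit at the pointed end of the complex. Its levels were 12.39, 11.93 and 12.12 in phoxim and 12.40, 12.84 and 12.30 in control RNA, and its log2 ratios of -0.01, -0.91 and -0.18 had a mean of -0.36 ± 0.48 (limma adjusted p = 0.68). The silkworm gene LOC692805, also named dynactin 4, had log2 ratios of -0.33, 0.64 and 0.24, so the 2 probes of that name were opposite in sign on replicates 2 and 3. Dynactin 1, the large subunit that grips the microtubule, was read by sw06748 at 0.25, -0.82 and -0.54 and by sw14993 at -0.35, -0.65 and 0.73.

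The actin-related protein Arp1, which forms the short filament at the core of dynactin, has the silkworm gene LOC732868 with 2 tested probes. One, sw03043, had log2 ratios of -0.62, 0.36 and -0.69, and the other, sw00195, had -0.05, -0.64 and 0.31. The probes of this gene were opposite in sign on replicates 2 and 3, and their means of -0.32 ± 0.59 and -0.13 ± 0.47 lay within the spread of each.

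Kinesins were centred on 0, with a median of 0.01 over 7 tested probes. Means ran from -0.34 to 0.57, and 2 probes were higher and 1 lower on all 3 arrays, against 18.2% and 17.1% of all probes. By limma 0 had an adjusted or an unadjusted p under 0.05. The probe sw14764, most like Costal2, a kinesin relative that relays the Hedgehog signal in flies, had levels of 10.03, 9.80 and 9.84 in phoxim and 8.73, 9.52 and 9.70 in control RNA. The groups did not overlap, but replicate 1 set most of the difference: the log2 ratios were 1.30, 0.27 and 0.15 and the mean was 0.57 ± 0.63 (limma adjusted p = 0.56).

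Kinesin-73, a fly motor that walks toward the plus end of microtubules, was the best match of 2 tested probes that pointed in opposite directions. The probe sw22054 had levels of 10.79, 11.34 and 10.72 in phoxim and 10.00, 11.04 and 10.47 in control RNA, with log2 ratios of 0.78, 0.29 and 0.24. The probe sw06720 had levels of 9.72, 9.73 and 9.71 in phoxim and 9.97, 10.15 and 10.07 in control RNA, with log2 ratios of -0.25, -0.42 and -0.36. Each kept its sign on all 3 arrays, at 0.44 ± 0.30 and -0.34 ± 0.09 (limma adjusted p = 0.60 and 0.66). A protein match does not say whether they belong to the same silkworm gene, and the difference between the probes was not tested.

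The conventional kinesin is built of a heavy chain, the motor, and a light chain that binds cargo. The heavy chain probe sw02952 had log2 ratios of 0.17, 0.10 and -0.23, and the light chain probe sw15468 had -0.15, 0.07 and -0.81 with a mean of -0.30 ± 0.46 (limma adjusted p = 0.75). KIF2, which in vertebrates takes microtubule ends apart, and KIF21B were dim, and the means of their probes were -0.06 and 0.01.

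**Figure D4:**
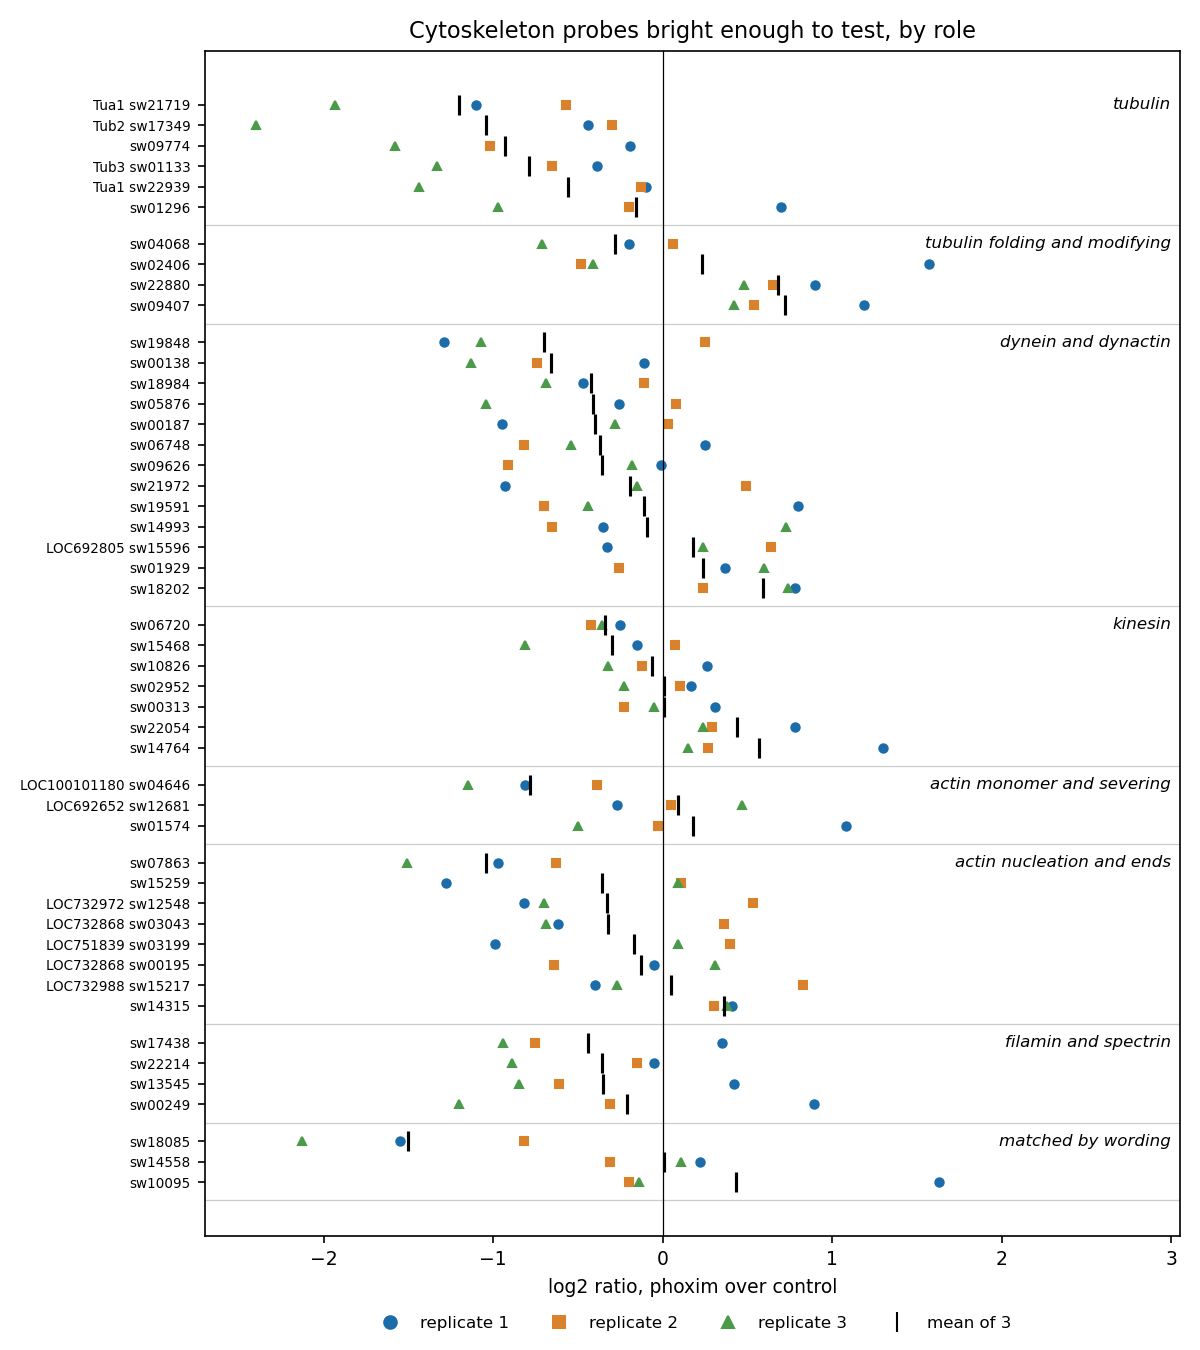
Log2 ratio of phoxim over control (horizontal axis) on each array for the 48 members tested, grouped by role, with the mean of the 3 arrays as a black bar. The tubulin bars all lie below 0, from -1.20 to -0.16, whereas the kinesin bars lie from -0.34 to 0.57.

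Among proteins that bind actin monomers or cut filaments, actin-depolymerizing factor 1 (LOC100101180), which severs old filaments, was the 1 member lower on all 3 arrays. Its levels were 8.50, 7.85 and 8.01 in phoxim and 9.30, 8.25 and 9.16 in control RNA, and phoxim RNA was above background on 2 arrays. In replicate 2 phoxim RNA, at an intensity of 199, missed the Cy3 limit of 307.1. Control RNA there, at 152, passed the Cy5 limit of 101.0. The highest phoxim level overlapped the lowest control level. The log2 ratios were -0.81, -0.39 and -1.15, with a mean of -0.78 ± 0.38 (limma unadjusted p = 0.033, adjusted p = 0.43). The probe sw17482, most like a Tetrahymena actin-binding protein of the cofilin/tropomyosin type, is no member because its description contains "myosin", and it is named here after its values were seen. It was also lower on all 3 arrays, at -1.12, -1.06 and -1.36, with a mean of -1.18 ± 0.16 (limma unadjusted p = 0.0037, adjusted p = 0.31).

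Gelsolin, which cuts and caps filaments and here matched the secreted form of the fly, was bright at probe sw01574, with levels of 13.95, 13.33 and 13.42 in phoxim and 12.87, 13.36 and 13.92 in control RNA. Its arrays disagreed in sign at 1.08, -0.03 and -0.50, with a mean of 0.18 ± 0.81 (limma adjusted p = 0.90). Profilin (LOC692652, now PFN in RefSeq), which feeds actin monomers to growing ends, had log2 ratios of -0.27, 0.05 and 0.47 and a mean of 0.09 ± 0.37. Neither showed a direction across the arrays.

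Capping protein closes the fast-growing end of the actin filament as a pair of an alpha and a beta subunit. The alpha subunit probe sw07863 had levels of 9.48, 8.97 and 8.89 in phoxim and 10.45, 9.60 and 10.39 in control RNA, above background throughout. Every phoxim level lay below every control level. The log2 ratios were -0.97, -0.63 and -1.51, with a mean of -1.04 ± 0.44 (95% interval -1.75 to -0.32; limma unadjusted p = 0.011, adjusted p = 0.38). The beta subunit, LOC732972, had levels of 10.21, 10.01 and 9.96 in phoxim and 11.03, 9.48 and 10.66 in control RNA. It shared the sign of the alpha subunit on replicates 1 and 3, at -0.82 and -0.70, and had the opposite sign on replicate 2 at 0.53, so that its mean was -0.33 ± 0.75 (limma adjusted p = 0.77).

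The Arp2/3 complex, which starts branches on existing filaments, was read by 2 silkworm genes without a common direction. LOC751839 had log2 ratios of -0.99, 0.40 and 0.09, and LOC732988, named as subunit 4 of the complex, had -0.40, 0.83 and -0.27. Both were higher in phoxim on replicate 2 and lower on replicate 1, as were 3 further probes of this role, LOC732972, sw03043 and sw15259. In all, 6 of the 8 probes of actin nucleation and filament ends had their highest ratio on replicate 2, against 27.8% of all probes.

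Arp5, an actin-related protein that works in the nucleus as part of a chromatin remodelling complex in yeast and mammals, had close values on the arrays at probe sw14315. Its levels were 10.66, 11.16 and 10.42 in phoxim and 10.24, 10.86 and 10.04 in control RNA, and its log2 ratios of 0.41, 0.30 and 0.38 had a mean of 0.36 ± 0.06 (limma adjusted p = 0.64). Arp6 (LOC733009), another nuclear relative, was not bright enough to test.

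Spectrins, the long crosslinkers of the skeleton beneath the cell membrane, had 4 tested probes with means from -0.44 to -0.21. Their medians were 0.39, -0.46 and -0.91 in replicates 1, 2 and 3. All 4 had their highest ratio on replicate 1, as had 48.5% of all probes. The probe sw17438, most like fly beta-spectrin, had log2 ratios of 0.35, -0.75 and -0.94 (mean -0.44 ± 0.70, limma adjusted p = 0.65). The probe sw22214, most like beta-heavy-spectrin, a form found at the apical face of fly epithelia, was the 1 spectrin lower on all 3 arrays at -0.05, -0.15 and -0.89 (mean -0.36 ± 0.46, limma adjusted p = 0.68). A second beta-heavy-spectrin probe, sw13545, had 0.42, -0.61 and -0.85, and the alpha-spectrin probe sw00249 had 0.89, -0.31 and -1.20. No filamin probe was tested.

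Actin itself and the proteins around it, searched for separately by their descriptions, were tested at 22 of 52 probes. By wording the search also took in sw08029, most like the serine protease inhibitor dipetalogastin, and sw09824, most like a chromatin regulator. It took in a muscle actin match, sw22633, as well, and the counts and median include these probes. The median log2 ratio of the 22 was -0.04, and 2 were higher and 5 lower on all 3 arrays, against 18.2% and 17.1% of all probes. With limma 0 had an adjusted p and 0 an unadjusted p under 0.05. The cytoplasmic actin probe sw22671, with phoxim RNA above background on 2 arrays, stood at 0.26, -0.81 and 0.72. In replicate 2 its phoxim RNA, at an intensity of 166, missed the Cy3 limit of 307.1, while control RNA, at 188, passed the Cy5 limit of 101.0. Brighter actin probes lay on both sides of 0: sw21905 at -0.96, 0.19 and -1.47 (mean -0.75 ± 0.85) and sw17388 at 1.17, 1.73 and -1.57 (mean 0.44 ± 1.77). Thymosin (LOC733028), which holds actin monomers, stood at 1.12, -0.12 and 0.96, and the talin probe sw10684 at -0.14, -0.81 and -0.99. Talin links integrins to actin.

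Muscle, which lies against the fat body and uses spectrin, capping protein and actin-severing proteins too, was checked through its own markers. Of 108 muscle probes 42 were tested, 40 were above background in no RNA, and the median log2 ratio was 0.50, with 1.09, 0.01 and 0.35 in replicates 1, 2 and 3. The summed intensity of all 108, not normalised between dyes or arrays, was 160590 to 237326 in phoxim and 60996 to 130524 in control RNA. In replicate 2 it was 160590 in phoxim and 130524 in control RNA. Of the 42, 17 were higher on all 3 arrays, against 18.2% of all probes. By limma 14 were higher and 1 lower at an unadjusted p under 0.05, against 6.13% and 4.81% of all probes, and 0 passed at an adjusted p. The 1 lower probe was sw17482, the cofilin/tropomyosin-type match described with actin-depolymerizing factor 1, which the search for muscle genes took in through its description. The members' median was on the other side of 0 from that of the muscle probes, and replicate 1 was the highest for 26 of the 48 members as for 48.5% of all probes. The part of muscle RNA in the members' values was not tested. Blood cell markers, tested at 13 of 48 probes, had a median of 0.05 and summed intensities of 20529 to 21757 in phoxim and 15543 to 19171 in control RNA, and their part was not tested either.

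The members matched by wording held the smallest p of all members. The probe sw18085, most like the GDP-forming succinate-CoA ligase alpha subunit, an enzyme of the citric acid cycle and not of the cytoskeleton, had levels of 9.22, 7.90 and 7.96 in phoxim and 10.77, 8.72 and 10.08 in control RNA. Its log2 ratios were -1.55, -0.82 and -2.13 and its mean was -1.50 ± 0.66 (limma unadjusted p = 0.0033, adjusted p = 0.30). Without it, 5 members in place of 6 were lower at an unadjusted p under 0.05. The other two tested probes of this kind, for a gel-forming mucin and a guanine nucleotide exchange factor, had means of 0.43 and 0.01.

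**Figure D5:**
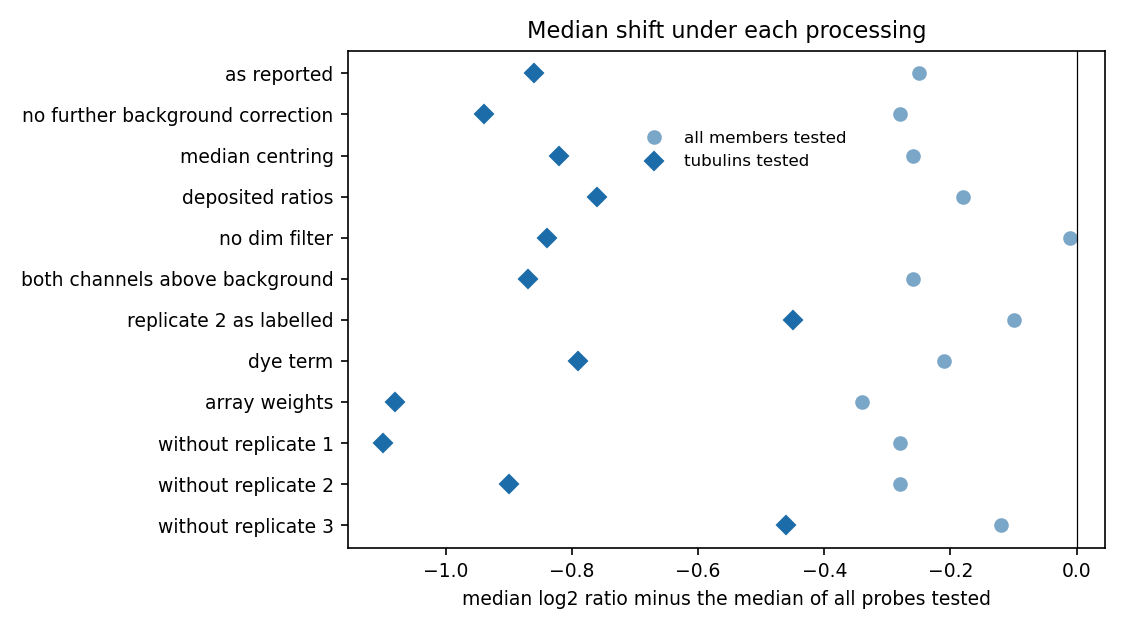
Median log2 ratio minus the median of all probes tested under the same processing (horizontal axis), for all members tested and for the 6 tubulins tested, under 12 ways of processing the arrays. The tubulin values lie from -1.10 without replicate 1 to -0.45 with replicate 2 as labelled, and the members' values from -0.34 with array weights to -0.01 without a filter on dim probes.

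The median of the 6 tubulins tested lay below that of all probes under each way of processing that was tried, and the difference varied in size. The same 6 probes were used throughout, so the changes of filter could not move the tubulin median. Their median minus that of all probes was -0.86 as reported, -0.76 with the authors' deposited ratios, -0.79 with a dye term in the model and -0.46 without replicate 3. Adjusted over all probes, 0 probes passed under any of these, and the smallest adjusted p by limma ran from 0.097 with median centring to 0.79 with the dye term.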

How the data were processed

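The members, roles and other gene lists were chosen with earlier results of these data known. Total RNA went through T7 amplification before the dyes Cy5 and Cy3 were added, per the labels' protocols. The deposited intensity of each channel was the starting point, and blank spots centred near 0, so it was taken as background-subtracted. The scanning step was not given in the sources used here. A ratio column deposited by the authors holds phoxim over control, per the file headers, normalized in a way not stated there. The deposited log2 values matched the log2 of that ratio within 5e-09 (medians 0.01, -0.02 and 0.05), and their centring method is unknown.

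The array files held 24288 spots: 677 positive controls, 382 negative controls, and single spots for 23229 gene probes. Normexp (offset 50) was applied to the intensities, with no separate background column used, then loess within arrays with controls at weight 0. The background limits were 46.9, 101.0 and 31.8 in Cy5 and 188.3, 307.1 and 175.7 in Cy3. Mean log2 ratios were tested against 0 with limma 3.58.1 in R 4.3.3 (lmFit, eBayes, two-sided, Benjamini-Hochberg over the 6154 probes kept, threshold 0.05). The script was tested on simulated data. Levels of each RNA were taken after loess and Aquantile, and saturation was set at 99% of a channel's maximum. No set test was made. Named members are the 14 with the same sign on all arrays and the smallest p, and in each role the 2 with the smallest p and the brightest. Other members are named to account for each role and were chosen after their values were seen. Array number limits the precision: the SD between arrays had a median of 0.53 over the members and 0.49 over all probes. Alternatives were other background corrections, normalizations, filters and dye orders, a dye term, array weights and leaving out each array. One further gene list that was searched for is not reported here.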

Additional observations from a re-analysis of the deposited data

How the results depend on the processing

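The count of 0 probes with an adjusted p under 0.05 by limma held under all 11 alternatives, at unadjusted counts from 297 probes (replicate 2 as labelled) to 1869 (no filter on dim probes), against 673 as reported. The members' median of -0.25 became -0.02 with median centring, where all probes stood at 0.24, -0.02 over all 216 probes with no filter on dim probes, and -0.06 with replicate 2 as labelled. It ranged from -0.30 to -0.10 when 1 array was left out. Members lower at an unadjusted p under 0.05 by limma numbered 6 of 48 as reported and 9 with array weights. They numbered 3 with a dye term, 2 with median centring, and 1 with replicate 2 as labelled or without replicate 3. With no filter they numbered 10 of 216. All probes under that p, in either direction, numbered 673 of 6154 as reported and 1005 with array weights. They numbered 376 with a dye term, 788 with median centring, 297 with replicate 2 as labelled and 332 without replicate 3. With no filter they numbered 1869 of 23229. Members higher numbered 2 as reported and 0 in 6 of the alternatives. For the 20 members named by rule, 5 of 215 values changed sign, and the cause was not tested: the kinesin light chain sw15468 stood at 0.05 with median centring. The dynactin 4 probe sw09626 stood at 0.24 and the beta-spectrin sw17438 at 0.05 with replicate 2 as labelled, and gelsolin sw01574 at -0.09 with array weights and -0.27 without replicate 1, against 0.52 without replicate 3. The reported test is already the paired analysis, since each array holds the treated and control RNA of 1 replicate number, and no further replicate block can be added. Signal over background limited the test to 48 of 216 members. Labels and headers differ on the order of the dyes on replicate 2, where the header was followed, and 3 arrays leave wide intervals.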
